A study of Rattus norvegicus with 12 samples.

Results

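Extracellular vesicles (EVs), small membrane-bound particles that cells release, were collected by ultracentrifugation. EVs secreted by Thy1-MCs, the mesenchymal cells of rat liver that carry the surface protein Thy1, were compared with EVs secreted by mature hepatocytes (MHs). All arrays titled Thy1 and all arrays titled MH were taken, 3 of each, which made 6 of the 12 arrays of the series. Each array was a 3D-Gene miRNA Oligo Chip that measured 727 rat miRNAs of 1 EV sample by the brightness of the dye Cy3. The other 6 arrays, of EVs from small hepatocytes (SHs) and from bone marrow mesenchymal stem cells (MSCs), entered the model only to estimate the spread, except where they are named. For Thy1-MC-EVs, rats received d-galactosamine (GalN), which injures the liver, and Thy1-positive cells were sorted 3 days later. After 7 days of culture the colonies of epithelial progenitor cells were detached, and the cells left on the dish were the Thy1-MCs. MHs came from healthy livers of rats 8 to 12 weeks old, and the article gives male F344/Nslc donor rats in general as 8 to 10 weeks old. The labels name the Thy1 cells as liver stem cells on plastic and the MHs as liver parenchymal cells on type I collagen, whereas the methods give collagen-coated dishes for Thy1-positive cells. The article assigns its EV arrays to Thy1-MCs. Both kinds of cell were kept for 2 days in medium without serum. Kind of cell, injury and culture cannot be told apart in this comparison, and no source says whether the 3 arrays of a group came from separate animals or cultures, so p-values measure the spread between arrays, which may be technical.

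A miRNA is cut from a hairpin precursor, whose 5p and 3p arms give separate mature strands. The strand that is loaded into an Argonaute protein pairs with mRNAs mainly through its seed, bases 2 to 8, and lowers their stability and translation, so miRNAs with the same seed have overlapping targets. EVs carry miRNAs out of the cell, and their content reflects in part what the secreting cell makes. In liver, miR-122 is the miRNA most typical of hepatocytes, while miR-143, miR-145 and the miR-199a and miR-214 pair are typical of stellate cells and fibroblasts.

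The sequences on which the comparison turns are given as RefSeq lists them for rat genome build GRCr8, 5′ to 3′, with the seed in capitals. Among the 387 miRNAs tested, 345 were found in that list. The first set holds hepatocyte miRNAs that were lower in Thy1-MC-EVs, and 3 strands of the miR-30 family that share 1 seed.
miR-122-5p: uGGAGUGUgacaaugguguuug
miR-192-5p: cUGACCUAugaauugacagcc
miR-194-5p: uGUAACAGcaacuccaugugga
miR-30a-5p: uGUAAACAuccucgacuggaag
miR-30c-5p: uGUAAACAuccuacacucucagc
miR-30e-5p: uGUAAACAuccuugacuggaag
The second set was higher in Thy1-MC-EVs, and let-7a-5p, which was not called, is added because it differs from let-7e-5p by a single base (U9G, let-7a base first, counted from 1 at the 5′ end).
miR-451-5p: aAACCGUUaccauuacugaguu
miR-144-3p: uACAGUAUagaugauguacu
miR-99b-5p: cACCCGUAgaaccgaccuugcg
let-7e-5p: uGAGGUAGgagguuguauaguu
let-7a-5p: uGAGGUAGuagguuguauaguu
miR-125a-5p: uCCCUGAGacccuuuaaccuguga
miR-125b-5p: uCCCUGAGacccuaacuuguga
miR-351-5p: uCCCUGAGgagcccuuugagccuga
The third set holds the only seed family with calls in both directions.
miR-29a-3p: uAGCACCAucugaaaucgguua
miR-29b-3p: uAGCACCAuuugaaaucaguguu
miR-29c-3p: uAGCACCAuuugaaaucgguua

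The MH-EV arrays differed from the others in their control spots. Their first spike-in control had an intensity of 5139 to 7915 against 28678 to 32905 on the other 9 arrays, and their blank spots averaged 59.8 to 77.9 against 96.8 to 136. Detected miRNAs, those with a raw intensity above the mean of the blank spots plus 2 SD, numbered 228, 272 and 359 on the Thy1-MC-EV arrays and 528, 438 and 425 on the MH-EV arrays. The limit was permissive, since 44.4% to 76.7% of the spots without a probe lay above it. For these reasons each difference was read in 2 ways. The first was the log2 difference of quantile-normalized intensity (Thy1-MC-EV minus MH-EV), tested with limma over 387 miRNAs, and a signed value given below without a unit is this difference. The second was the position of the miRNA on its own array, where 1 is the brightest of 727 probes, which no scaling of an array can change. Positions were tested with limma as normal scores of the ranks, and it was recorded whether the 3 positions of one group all lay on one side of the 3 of the other. Quantile-normalized values depend on the ranks too, so the second reading is not independent of the first.

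Thy1-MC-EVs and MH-EVs differed in 116 of 387 miRNAs (30.0%) at an adjusted p under 0.05, with higher values in Thy1-MC-EVs for 56 (14.5%) and lower values for 60 (15.5%). A difference above 2-fold was measured for 34 of the higher and 28 of the lower miRNAs. All 6 arrays detected 50 of the 56, but only 33 of the 60. The rank test called 86 miRNAs (22.2%), 41 higher (10.6%) and 45 lower (11.6%), and 84 of these were also called by intensity. Positions of the groups did not overlap for 177 of the 386 miRNAs with 6 values (45.9%), with Thy1-MC-EVs brighter in 81 (21.0%) and MH-EVs brighter in 96 (24.9%). Among the intensity calls this held for 54 of 56 higher and 59 of 60 lower miRNAs, and the exceptions were miR-27a-3p, miR-665 and miR-134-3p.

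Directions changed with the scaling of the arrays. Scaling to the median of the miRNAs detected on all 12 arrays called 91 miRNAs higher and 30 lower, and scaling to their 75th percentile 67 and 22. With the authors' normalized intensities 9 were higher and 217 lower, and with the spike-in spots 1 and 363. These settings moved the median log2 difference over all miRNAs tested from -0.05 to 0.64, 0.76, -1.40 and -2.23. Under cyclic loess it was -0.05, with 51 higher and 62 lower. Of the lower calls, 45 of 60 kept their sign under all 5 other scalings, and of the higher calls 4 of 56, which were miR-451-5p, let-7e-5p, miR-125a-3p and miR-143-5p. Scaling to the median, the 75th percentile or the spike-in spots shifts all miRNAs alike, so relative to the median of all miRNAs these 3 give a single result, in which 55 of the 56 higher and 60 of the 60 lower calls kept their direction. Relative to that median the counts were 56 and 60 under cyclic loess and 56 and 58 with the authors' values. The exceptions were miR-27a-3p, miR-7a-1-3p and miR-802-3p. A miRNA described below as higher or lower is so by comparison with the rest of its array, and its amount per EV was not measured.

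**Figure D1:**
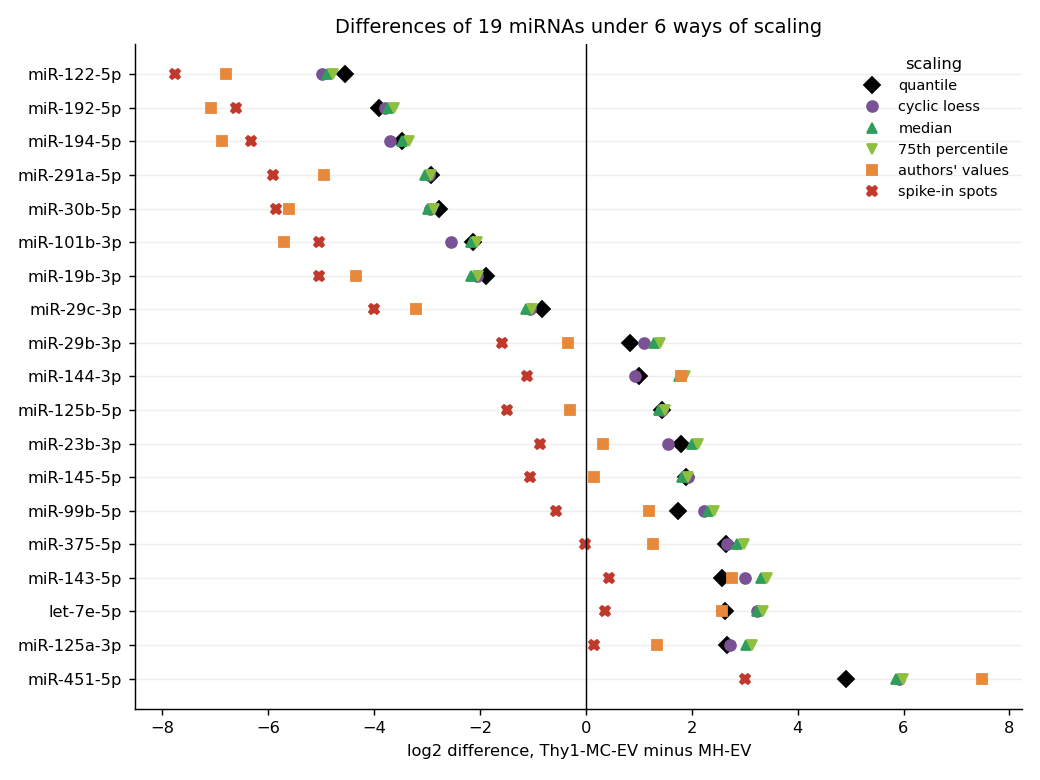
The log2 difference of 19 miRNAs (Thy1-MC-EV minus MH-EV, horizontal axis) under quantile normalization and 5 other scalings, 1 symbol per scaling. The 8 miRNAs at the top lie below 0 under all 6, miR-451-5p, miR-125a-3p, let-7e-5p and miR-143-5p above 0 under all 6, and the others cross 0 with the spike-in spots, some also with the authors' values.

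The 4 largest negative differences belonged to hepatocyte miRNAs. Of 20 tested members of the hepatocyte list, 15 were lower (75%, against 15.5% of all miRNAs tested), 1 was higher and 4 were not called, with a median log2 difference of -0.94 against -0.05 over all 387. All 3 MH-EV arrays detected 20 of the 23 listed probes, and all 3 Thy1-MC-EV arrays detected 9. Over all probes these counts were 379 and 217. Part of the list thus entered the test through groups other than Thy1-MC-EVs, MH-EVs among them. The share is tied to that filter and is no independent evidence of a direction. When arrays were scaled to the median or to the 75th percentile of the common miRNAs, 8 of the 20 were lower and 1 was higher. Over all 387 miRNAs those scalings called 30 and 22 lower and 91 and 67 higher. By rank 12 were lower, against 11.6% of all. MiR-122-5p, which acts in cholesterol metabolism and makes up much of the miRNA of hepatocytes, had raw intensities of 44091, 48376 and 25724 on the MH-EV arrays and 298, 718 and 2344 on the Thy1-MC-EV arrays. It stood at positions 1, 1 and 3 in MH-EVs and 61, 50 and 28 in Thy1-MC-EVs. The groups lay far apart on both scales, with a log2 difference of -4.55 (SE 0.40, limma adjusted p = 1.8e-05, rank adjusted p = 0.000269). Its other arm, miR-122-3p, was at positions 17, 17 and 8 in MH-EVs and 241, 140 and 46 in Thy1-MC-EVs, a log2 difference of -3.91 (SE 0.62, limma adjusted p = 0.000946). This arm was not detected on Thy1-MC-EV replicate 1. Its difference was -5.20 after plain subtraction of the blank mean and -3.64 without background correction. The miR-122 gene lies on chromosome 18 of GRCr8, with the mature strand at chr18:61028831-61028852.

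MiR-192 lies beside 1 copy of miR-194 on chromosome 1 (chr1:212994232-212994252 for miR-192-5p), while another copy of miR-194 gives the same miR-194-5p from chromosome 13, within the gene Iars2. Both miRNAs are known for their response to p53 and their abundance in liver, gut and kidney. Raw intensities of miR-192-5p were 3045, 2487 and 2891 in MH-EVs and 96.9, 140 and 328 in Thy1-MC-EVs, where 1 of 3 arrays detected it. Those of miR-194-5p were 1741, 1608 and 2590 and 94.8, 140 and 215, also detected on 1 Thy1-MC-EV array. Neither pair of groups overlapped. The log2 differences were -3.90 (SE 0.37, limma adjusted p = 2.89e-05) for miR-192-5p and -3.47 (SE 0.23, limma adjusted p = 1.84e-06) for miR-194-5p, and rank adjusted p-values were 0.00539 and 0.000955. The sizes moved with the handling of the background, to -5.85 and -5.47 after plain subtraction of the blank mean and -3.50 and -3.05 without background correction. The 3p arms of the same precursors were lower too, so that all 4 tested strands of these precursors were called lower, against 15.5% of all miRNAs tested. MiR-194-3p gave -0.52 (limma adjusted p = 0.0256) and did not pass by rank (adjusted p = 0.0726). MiR-192-3p was detected on no Thy1-MC-EV array and was at least 1.19-fold lower (limma adjusted p = 0.000733). A bound of this kind sets the mean of the group that detected the miRNA against, on each array that did not, the lowest level among detected probes or the miRNA's own level if that was higher. With scaling to the 75th percentile the log2 differences of these 3p arms were 0.0085 for miR-194-3p and 0.058 for miR-192-3p.

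MiR-101b-3p, whose family targets the histone methyltransferase Ezh2, moved from positions 71, 58 and 99 in MH-EVs to 297, 265 and 226 in Thy1-MC-EVs (log2 difference -2.12, SE 0.27, limma adjusted p = 0.000242). It was not detected on Thy1-MC-EV replicate 1, and gave -3.92 after plain subtraction of the blank mean and -1.80 without background correction. MiR-101a-3p, which differs from it by a single base (G16A, miR-101b base first), was detected on no Thy1-MC-EV array and was at least 1.23-fold lower (limma adjusted p = 0.0132). Its log2 difference of -0.61 became 0.037 and 0.15 when arrays were scaled to the median and to the 75th percentile. MiR-22-3p was among the 15 brightest probes on every array, at positions 15, 13 and 11 in Thy1-MC-EVs and 8, 8 and 1 in MH-EVs. Its call by intensity (-1.36, limma adjusted p = 0.0307) was not made by rank (adjusted p = 0.111). MiR-802-5p, a miRNA of liver and pancreas that alters glucose metabolism in mice, was detected on all MH-EV arrays and on no Thy1-MC-EV array, and was at least 1.32-fold lower (limma adjusted p = 0.000946). That call ended with scaling to the median (-0.25, adjusted p = 0.611) and to the 75th percentile (-0.13, adjusted p = 0.832). MiR-378a, encoded within the gene for the metabolic coactivator Ppargc1b, split by arm. Its 3p arm fell (positions 41, 40 and 24 in MH-EVs and 122, 117 and 51 in Thy1-MC-EVs, log2 difference -1.75, limma adjusted p = 0.00794, or 0.0518 in a limma fit of these 6 arrays alone), and its 5p arm was the only listed hepatocyte miRNA that rose (positions 124, 97 and 120 and 65, 60 and 73, log2 difference 1.04, limma adjusted p = 0.00538).

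Thy1-MC-EV replicate 3 was often the brightest array of its group for these miRNAs. Of the 15 that were lower, 10 had their brightest position among the 3 Thy1-MC-EV arrays on that array, against 138 of all 387 miRNAs (35.7%). For miR-122-3p the raw intensities were 107, 234 and 1153, the last of them from replicate 3. Without that array 14 of the 20 listed miRNAs were lower, against 48 of all 387. The log2 difference was then -4.93 for miR-122-5p, -4.74 for miR-122-3p and -4.37 for miR-192-5p. Summed over the 23 listed probes on the array, quantile-normalized intensity was 7980 to 11542 in Thy1-MC-EVs and 38885 to 52442 in MH-EVs. It was 11624 to 13170 in SH-EVs and 10179 to 13278 in MSC-EVs, so the low sum was not particular to Thy1-MC-EVs. Whether hepatocyte material had a part in replicate 3 was not tested.

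**Figure D2:**
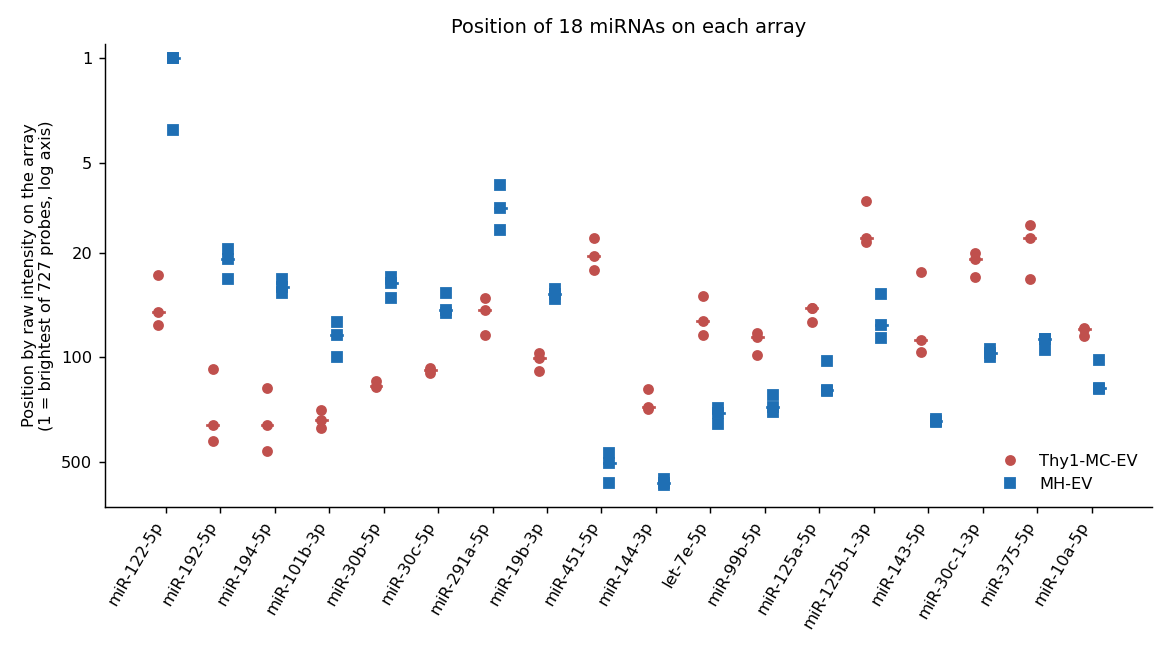
Position of 18 miRNAs by raw intensity on each array (log axis, 1 is the brightest of 727 probes), with Thy1-MC-EV arrays as red circles, MH-EV arrays as blue squares and a line at the median of 3. The positions of the groups do not overlap for any of the 18, and miR-122-5p is at positions 1, 1 and 3 in MH-EVs. All 18 were picked from the intensity calls, nearly all of which had positions that did not overlap.

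The miR-30 family, which is plentiful in epithelial cells, fell on its 5p side. All 5 of its 5p strands were lower by intensity and by rank, with log2 differences from -1.39 to -2.77 and a median of -1.58. Of all miRNAs tested 15.5% were lower by intensity and 11.6% by rank. The positions of the groups did not overlap for any of the 5 strands, with MH-EVs brighter, as for 24.9% of all miRNAs. With scaling to the 75th percentile 4 of the 5 were called lower, against 22 of all 387. MiR-30b-5p had raw intensities of 2158, 1742 and 2130 in MH-EVs and 144, 200 and 222 in Thy1-MC-EVs, at positions 32, 29 and 40 and 145, 159 and 156. The 3 arrays of each group lay close together, and the difference was -2.77 (SE 0.18, limma adjusted p = 1.84e-06, rank adjusted p = 0.000124). MiR-30c-5p went from positions 48, 37 and 51 to 128, 119 and 122 (-1.90, limma adjusted p = 1.8e-05), miR-30a-5p fell by 1.42 and miR-30d-5p by 1.58 on the log2 scale. MiR-30e-5p (-1.39) was not detected on all 6 arrays, and gave -3.03 after plain subtraction of the blank mean. MiR-30a-5p and miR-30e-5p differ at 1 base (U13C, miR-30e base first), and near-identical miRNAs can bind each other's probes, so how far their values are separate was not tested.

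On the 3p side 1 of 4 strands went the other way. MiR-30c-1-3p lies on the same hairpin as a copy of miR-30c-5p, in the gene Nfyc on chromosome 5 (chr5:139634467-139634488), next to miR-30e. Its raw intensities were 666, 1957 and 2950 in Thy1-MC-EVs and 483, 366 and 525 in MH-EVs, at positions 29, 22 and 20 and 100, 94 and 88. The groups did not overlap by either reading, with a log2 difference of 2.52 (SE 0.26, limma adjusted p = 5.82e-05, rank adjusted p = 0.000602). MiR-30c-2-3p, which differs from it at 3 bases, gave -0.08 and was not called. MiR-30a-3p was detected on no Thy1-MC-EV array and was at least 1.06-fold lower (limma adjusted p = 0.0132), though its log2 difference lay above 0 (0.24 and 0.36) with scaling to the median and to the 75th percentile.

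Members of the miR-17/92 cluster, which promotes proliferation downstream of Myc, did not move as one. Of 7 tested strands of the copy on chromosome 15, 3 fell, 1 rose and 3 were not called, a share of lower calls to set against 15.5% of all. MiR-19b-3p and miR-92a-3p are also made from a second cluster on the X chromosome. MiR-19b-3p stood at positions 38, 41 and 35 in MH-EVs and 94, 101 and 124 in Thy1-MC-EVs, with a difference of -1.89 (SE 0.18, limma adjusted p = 2.95e-05, rank adjusted p = 0.000833). MiR-19a-3p, a single base away (C11U, miR-19b base first), was detected on 1 Thy1-MC-EV array and fell by 0.80 on the log2 scale (limma adjusted p = 0.00766). MiR-92a-3p had raw intensities of 673, 520 and 2896 in MH-EVs and 186, 235 and 362 in Thy1-MC-EVs, and MH-EV replicate 3 was well above the rest. Its difference of -1.32 (limma adjusted p = 0.0353) was not called by rank (adjusted p = 0.0526). The strand that rose was miR-17-1-3p (0.69, limma adjusted p = 0.00192).

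MiRNAs of the miR-290 cluster, which mouse embryonic stem cells express, lay in the same direction as the hepatocyte list. Of its 6 tested miRNAs 3 were lower and none was higher, by either reading, against 15.5% lower of all miRNAs by intensity and 11.6% by rank. With scaling to the 75th percentile 2 of the 6 were lower, against 22 of all 387. MiR-291a-5p was bright on all arrays, with raw intensities of 6844, 5208 and 13831 in MH-EVs and 458, 418 and 1128 in Thy1-MC-EVs and a difference of -2.93 (SE 0.38, limma adjusted p = 0.000242, rank adjusted p = 0.00155). For miR-294 the positions were 30, 31 and 15 and 104, 137 and 91 (-2.76, limma adjusted p = 0.000242). MiR-290 was lower by 1.03 on the log2 scale, and miR-292-3p, miR-292-5p and miR-295-5p were not called.

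Other miRNAs with large negative differences included miR-3065-3p, miR-675-5p, miR-760-3p and miR-326-5p, which belonged to no list. MiR-3065-3p moved from positions 9, 9 and 27 in MH-EVs to 52, 56 and 47 in Thy1-MC-EVs (-2.41, SE 0.43, limma adjusted p = 0.002). MiR-675-5p, which is cut from the imprinted H19 transcript, moved from 42, 45 and 49 to 102, 120 and 130 (-1.79, limma adjusted p = 0.000946). MiR-760-3p and miR-326-5p were among the 40 brightest probes on every array and still fell, by 1.46 and 1.32 on the log2 scale (limma adjusted p = 0.00594 and 0.00596). MiR-378b, which is on the hepatocyte list and was counted there, fell by 1.81, close to miR-378a-3p. Of the 53 miRNAs detected on all MH-EV arrays and on no Thy1-MC-EV array 12 were called lower, and their bounds were small. These bounds hold for quantile-normalized values, since none of the 12 was called with scaling to the median or to the 75th percentile. The largest were at least 1.86-fold for miR-203a-3p, known from skin (limma adjusted p = 0.00444), 1.57-fold for miR-497-5p (limma adjusted p = 0.0255), 1.45-fold for miR-146a-5p, which NF-kappaB induces (limma adjusted p = 0.0255), and 1.42-fold for miR-7578 (limma adjusted p = 0.00675).

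Turning to the miRNAs that were higher, miR-451-5p had the largest quantile-normalized difference. It is known from red cell precursors, where Argonaute 2 cuts it without Dicer, and shares a transcript with miR-144 on chromosome 10 (chr10:63459585-63459606 for miR-451-5p). Raw intensities were 1965, 1991 and 2416 in Thy1-MC-EVs and 74.1, 64.7 and 80.3 in MH-EVs, where 1 of 3 arrays detected it. It stood at positions 16, 21 and 26 in Thy1-MC-EVs and in the dimmer part of the array in MH-EVs (693, 437 and 513). The log2 difference was 4.92 (SE 0.21, limma adjusted p = 4.66e-08, rank adjusted p = 0.000269). Its size moved with the handling of the background, to 7.31 after plain subtraction of the blank mean and 4.32 without background correction. MiR-144-3p was the only miRNA detected on all Thy1-MC-EV arrays and on no MH-EV array. Its raw intensities of 130, 160 and 160 against 69.8, 56.7 and 75.3 gave a bound of at least 1.67-fold (limma adjusted p = 0.000441, rank adjusted p = 0.000269). The opposite arms, miR-451-3p and miR-144-5p, were detected on none of these 6 arrays.

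MiR-451-5p was also called against EVs of the other cells, higher than in SH-EVs and lower than in MSC-EVs. Its raw intensities were 122, 118 and 107 in SH-EVs, where no array detected it, and 1785, 3798 and 1520 in MSC-EVs. The limma adjusted p was 5.86e-08 against SH-EVs and 0.00452 against MSC-EVs, the latter with a log2 difference of -1.06. Of the 5 erythroid miRNAs tested 3 were higher, namely miR-451-5p, miR-144-3p and miR-92a-2-5p (1.19, limma adjusted p = 0.0151), and miR-92a-3p was lower, against 14.5% higher and 15.5% lower of all miRNAs. MiR-451-5p had been selected by the study on these arrays and shares its transcript with miR-144, so the count is no independent evidence of a direction. Summed over the 9 erythroid probes, intensity was 3008 to 5188 in Thy1-MC-EVs, 1493 to 2202 in MH-EVs and 6706 to 8063 in MSC-EVs. The part of red cells in these values was not tested.

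The cluster of miR-99b, let-7e and miR-125a lies within 1 kb in the gene Spaca6 on chromosome 1 (miR-99b-5p at chr1:67350070-67350091, let-7e-5p at chr1:67350243-67350264, miR-125a-5p at chr1:67350689-67350712). Of its 5 tested strands 4 rose, against 14.5% of all miRNAs tested. Let-7 miRNAs are known to hold back growth and the Lin28 and Hmga2 genes. Let-7e-5p had raw intensities of 243, 596 and 1435 in Thy1-MC-EVs and 106, 94.9 and 137 in MH-EVs, at positions 71, 57 and 39 and 281, 236 and 219. It was higher by 2.64 (SE 0.24, limma adjusted p = 2.43e-05, rank adjusted p = 0.000172). None of the other 9 let-7 strands tested was called. Let-7a-5p, the closest in sequence, stood at positions 62, 63 and 60 and 66, 43 and 47 and differed by -0.33 (SE 0.21, limma adjusted p = 0.273). The 2 probes, whose targets differ at 1 base, thus gave unlike values.

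MiR-125a-5p is a mammalian form of lin-4, the first miRNA found in C. elegans. Its positions were 47, 47 and 58 in Thy1-MC-EVs and 169, 167 and 106 in MH-EVs (1.98, SE 0.21, limma adjusted p = 6.21e-05, rank adjusted p = 0.00115). Its other arm, miR-125a-3p, was among the 6 brightest probes on each Thy1-MC-EV array, at 6, 2 and 6 against 21, 16 and 42 (2.66, limma adjusted p = 0.00192). MiR-99b-5p went from 232, 217 and 180 in MH-EVs to 97, 73 and 69 in Thy1-MC-EVs (1.73, limma adjusted p = 0.000553). The strand that did not pass was miR-99b-3p, detected on 2 Thy1-MC-EV arrays (-0.05, limma adjusted p = 0.765). MiR-100-5p, with the same seed as miR-99b-5p, gave -0.24 and was not called. All 3 tested miRNAs with the miR-125 seed rose, against 14.5% of all miRNAs tested, among them miR-351-5p (0.61, limma adjusted p = 0.00997) and miR-125b-5p.

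Among miRNAs of mesenchymal cells, 8 of the 21 tested were higher (38.1%, against 14.5% of all miRNAs tested), none was lower, and 13 were not called, with a median of 0.52 against -0.05 over all 387. By rank 7 were higher, against 10.6% of all. The 8 were both arms of miR-125a, 2 strands of miR-125b, miR-99b-5p, miR-143-5p, miR-145-5p and miR-199a-3p. Among them, miR-125b-5p and miR-145-5p had been selected by the study on these arrays. The strands of miR-125a and miR-99b-5p come from 1 cluster. The share of higher members is thus no independent evidence of a direction. MiR-125b-1-3p had raw intensities of 1951, 6237 and 4295 in Thy1-MC-EVs and 1078, 1361 and 760 in MH-EVs, at positions 17, 9 and 16 and 61, 38 and 74. Its groups did not overlap by position (2.57, SE 0.37, limma adjusted p = 0.000546). MiR-143 and miR-145 are made from 1 transcript on chromosome 18 and are known from smooth muscle and fibroblasts. MiR-145-5p was at positions 32, 30 and 18 in Thy1-MC-EVs and 78, 80 and 65 in MH-EVs (1.89, limma adjusted p = 0.0144). Of miR-143 the 5p arm rose, from raw intensities of 113, 83.8 and 113 to 208, 395 and 2374, with Thy1-MC-EV replicate 3 far above the other 2 (2.58, SE 0.47, limma adjusted p = 0.00212). Its 3p arm did not pass (0.53, limma adjusted p = 0.22).

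Defining markers of stellate cells and fibroblasts were split. MiR-214-3p stood at positions 50, 51 and 45 in Thy1-MC-EVs and 50, 59 and 85 in MH-EVs and overlapped (0.50, limma adjusted p = 0.304). MiR-199a-3p had raw intensities of 133, 210 and 199 and 95.8, 71.0 and 87.5, did not overlap by position, and passed by intensity (0.93, limma adjusted p = 0.0256) but not by rank (adjusted p = 0.248). Summed over the 34 listed probes, intensity was 20000 to 31655 in Thy1-MC-EVs and 8176 to 11320 in MH-EVs, ranges that did not overlap. The sum was 10677 to 13482 in MSC-EVs and 8830 to 11126 in SH-EVs, and both ranges overlapped that of MH-EVs. The high sum was thus not shared by EVs of the other mesenchymal cells, and bright probes weigh most in such a sum.

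MiR-23, miR-27 and miR-24 come from 2 clusters, on chromosomes 17 and 19, and are expressed in many cells, endothelium among them. Of 8 strands tested 4 rose, 1 fell and 3 were not called, against 14.5% higher and 15.5% lower of all miRNAs. MiR-23b-3p was at positions 8, 7 and 7 in Thy1-MC-EVs and 28, 26 and 11 in MH-EVs (1.79, limma adjusted p = 0.013), and miR-23a-3p at 9, 8 and 8 and 27, 27 and 12 (1.60, limma adjusted p = 0.0153). These strands differ at 1 base (U19A, miR-23a base first), and their values were close on every array. MiR-24-3p rose by 1.25 and miR-27a-3p by 0.76, the latter with overlapping positions and an adjusted p of 0.0551 once the replicate number was a block in limma. None of the 4 that rose passed by rank (adjusted p = 0.0609 to 0.114). The strand that fell was miR-23a-5p, with positions 187, 238 and 202 and 91, 125 and 139 (-0.99, limma adjusted p = 0.00396), a call that ended with scaling to the median (adjusted p = 0.116) and to the 75th percentile (adjusted p = 0.299).

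The remaining large increases were spread over unrelated miRNAs. MiR-375-5p, the arm opposite the islet miRNA miR-375-3p, was at 13, 16 and 30 in Thy1-MC-EVs and 75, 75 and 90 in MH-EVs (2.65, SE 0.49, limma adjusted p = 0.00232). MiR-347 rose by 2.34, miR-664-1-5p by 2.07, miR-139-3p by 2.01 and miR-1224 by 1.69 on the log2 scale. Their positions did not overlap, which was a condition for naming them. MiR-130a-3p rose by 1.81 and miR-130b-3p, of the same seed, by 0.87 (limma adjusted p = 0.000946 and 0.0108). MiR-181a-5p, which tunes receptor signalling in lymphocytes, moved from positions 253, 226 and 216 in MH-EVs to 81, 74 and 111 in Thy1-MC-EVs (1.67, limma adjusted p = 0.00131). MiR-10a-5p lies among the Hoxb genes and had positions 72, 64 and 65 and 162, 163 and 104 that did not overlap (1.39, SE 0.20, limma adjusted p = 0.000537), yet its rank adjusted p was 0.307 with 12 arrays and 0.0222 with the 6 alone. In the Dlk1-Dio3 region, an imprinted domain with many miRNAs, 4 of 30 tested were higher and 1 lower, of which the higher share is close to the 14.5% over all miRNAs and the lower share below 15.5%, and miR-370-3p had the largest difference (1.51, limma adjusted p = 0.00463).

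**Figure D3:**
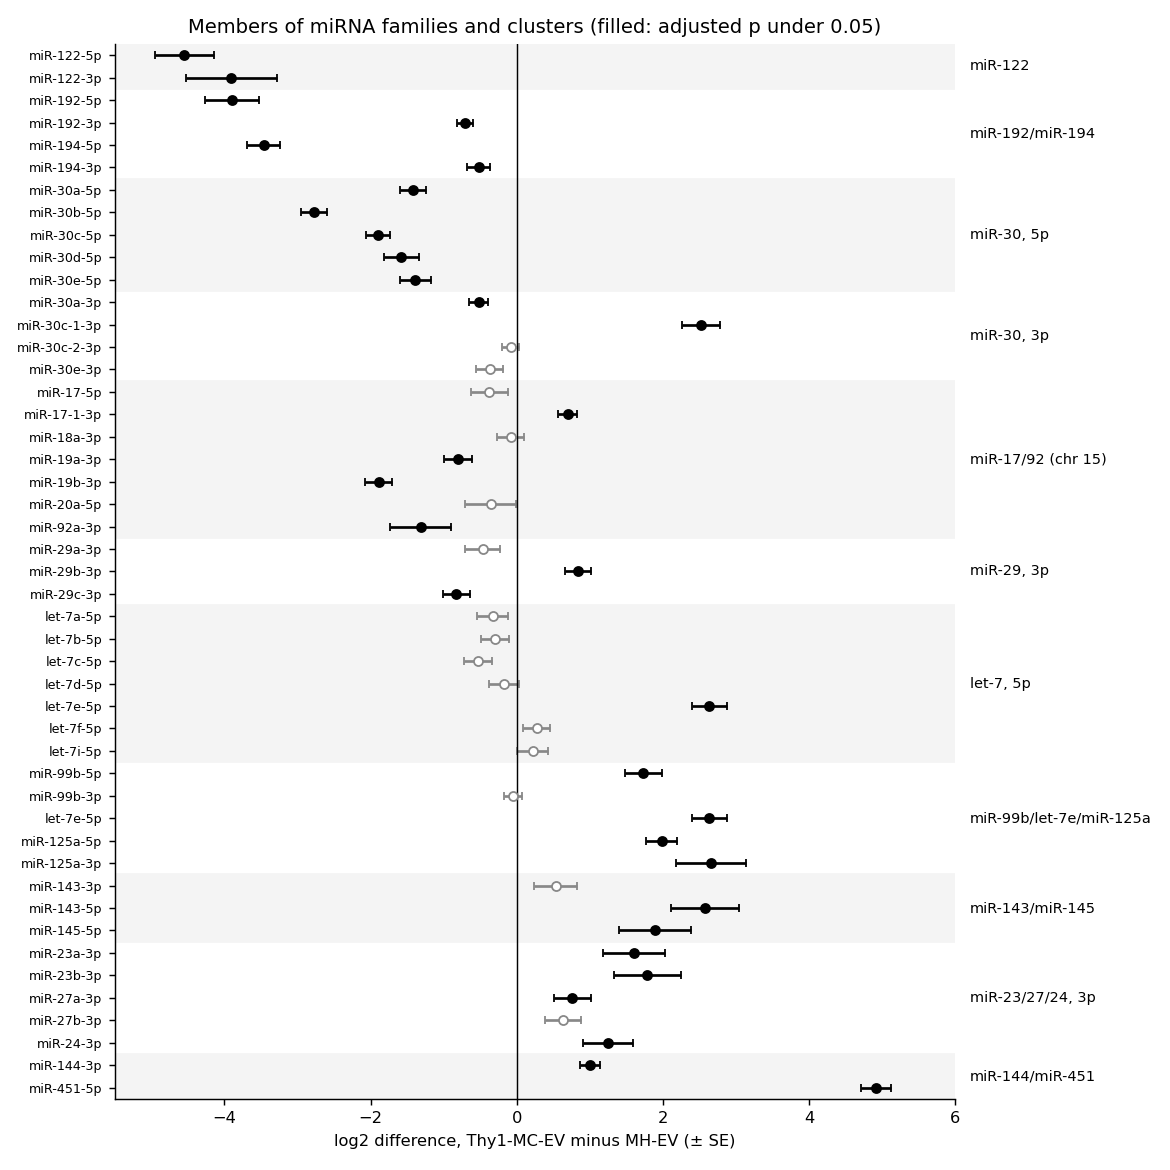
The log2 difference (Thy1-MC-EV minus MH-EV) with its standard error for the tested members of 11 families and clusters, filled where the limma adjusted p was under 0.05. The 5p strands of miR-30 all lie below 0, let-7e-5p lies apart from the other let-7 strands, and miR-29b-3p and miR-29c-3p lie on opposite sides of 0.

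Of 37 seed families with at least 2 tested members, 24 had a call, and in 12 of these a single member was called. Of the other 12, which had 2 or more calls, 1 had calls in both directions. That one was miR-29, whose targets include collagen mRNAs. MiR-29b-3p rose (positions 109, 82 and 118 in Thy1-MC-EVs and 186, 161 and 147 in MH-EVs, 0.84, limma adjusted p = 0.00444), and miR-29c-3p fell (positions 100, 85 and 78 and 67, 57 and 50, -0.83, limma adjusted p = 0.00678). MiR-29c and 1 copy of miR-29b lie together on chromosome 13, while the other copy of miR-29b lies beside miR-29a on chromosome 4, and the probe does not tell the copies apart. MiR-29b-3p and miR-29c-3p differ at 3 bases (A18G, G21U and U22A, miR-29b base first). MiR-29a-3p, which differs from miR-29c-3p at 1 base (C10U, miR-29a base first), was not called (-0.46, limma adjusted p = 0.192). By rank miR-29b-3p passed (adjusted p = 0.0166) and miR-29c-3p did not (adjusted p = 0.0508). With the authors' values and with the spike-in spots miR-29b-3p lay below 0, but in each case nearer to 0 than miR-29c-3p.

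Markers of other kinds of cell were read against the 30.0% called over all miRNAs. Of 12 leukocyte miRNAs tested 3 were higher and 1 lower, close to that share, the lower one being miR-146a-5p. The highest were miR-181a-5p and miR-181b-5p, while miR-142-5p gave 0.28. The calls of miR-181b-5p and miR-142-5p were lost with the replicate number as a block (adjusted p = 0.0609 and 0.0576). MiR-223-3p and miR-150-5p, known from myeloid and lymphoid cells, were not called (-0.02 and 0.23), nor was miR-126a-3p of endothelium (0.16). The endothelial list had 1 call of 4, miR-222-3p, which was detected on 2 Thy1-MC-EV arrays and no MH-EV array (limma adjusted p = 0.0338). Of the epithelial list, 2 of 12 were higher, miR-182 (1.06) and miR-141-5p (0.70, detected on 1 MH-EV array), and miR-203a-3p was lower. MiR-141-3p was detected on no array of either group. MiR-200c-3p and miR-429 were detected on no Thy1-MC-EV array and on some but not all MH-EV arrays, so none of these was tested. Summed intensity was 2318 to 2560 in Thy1-MC-EVs and 2076 to 2184 in MH-EVs for the leukocyte list, 605 to 715 and 538 to 658 for the endothelial list, and 1411 to 1768 and 1429 to 1628 for the epithelial list. Ranges overlapped for the last 2 lists, and the part of other cells in the differences was not tested.

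**Figure D4:**
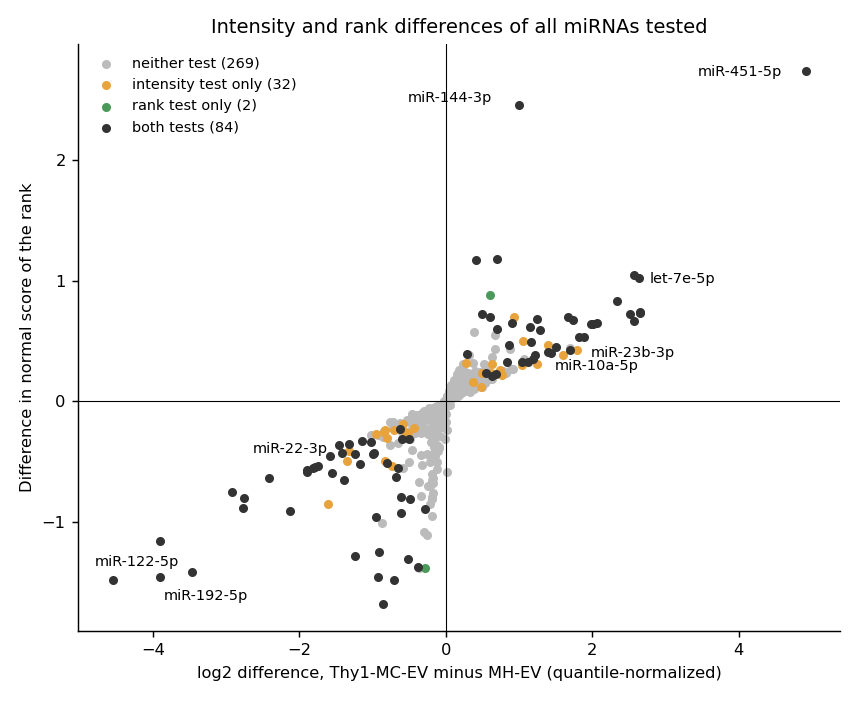
Difference in the normal score of the rank (vertical axis) against the log2 difference of quantile-normalized intensity (horizontal axis, Thy1-MC-EV minus MH-EV) for 387 miRNAs, coloured by the test they passed at an adjusted p under 0.05. Of these, 84 passed both tests, 32 the intensity test alone and 2 the rank test alone, and miR-144-3p has a large difference in rank score beside a log2 difference of 1.00.

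Rank order did not support every intensity call. The rank test made 40 of the 56 higher and 44 of the 60 lower calls, and 16 in each direction were made by intensity alone. Of those 32, the smallest adjusted p by intensity belonged to miR-10a-5p, and miR-182, miR-23b-3p, miR-24-3p, miR-29c-3p and miR-22-3p were among them. Positions of the groups did not overlap for 29 of the 32, against 45.9% of all miRNAs with 6 values. Nearly all intensity calls had such positions (54 of 56 higher and 59 of 60 lower), and quantile-normalized values depend on the ranks. The 29 are therefore no separate support by rank. The 2 miRNAs called by rank alone were miR-383-5p, at positions 530, 714 and 698 in Thy1-MC-EVs and 442, 362 and 370 in MH-EVs, and miR-487b-3p, at 192, 184 and 442 and 471, 536 and 528. MiR-383-5p was detected on no Thy1-MC-EV array, miR-487b-3p on 2 of 3 and on 1 MH-EV array, and positions below the detection limit hold little order.

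The brightest probes were largely the same in both groups. By median position the first 4 in Thy1-MC-EVs were miR-92b-5p, miR-204-3p, miR-328a-5p and miR-211-3p, and in MH-EVs miR-122-5p, miR-211-3p, miR-328a-5p and miR-326-5p with miR-204-3p. MiR-92b-5p was at 1, 1 and 2 in Thy1-MC-EVs and 6, 7 and 6 in MH-EVs (1.25, limma adjusted p = 0.0255). MiR-211-3p was at 4, 5 and 4 and 2, 2 and 2 (-0.60, limma adjusted p = 0.0463). MiR-204-3p and miR-328a-5p were not called (0.88 and 0.11). Brightness of different probes cannot be compared as amounts, so these positions say which spots were bright, not which miRNAs were most abundant.

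The ratio of the 2 arms of a precursor on the same array gave a further reading, from which array scale cancels only in part. Of 265 precursors with both arms on the chip, 31 had both detected on all 6 arrays, and the log2 ratio of 5p to 3p differed in 15 of them (48.4%), 9 higher and 6 lower in Thy1-MC-EVs. MiR-675 had ratios of 0.92, 1.01 and 0.90 in Thy1-MC-EVs and 3.61, 3.61 and 3.92 in MH-EVs. Both groups were tight and far apart, a difference of -2.77 (SE 0.20, limma adjusted p = 8.57e-07). MiR-378a went the other way, with 0.89, 1.27 and -0.80 in Thy1-MC-EVs and -2.30, -2.002 and -3.60 in MH-EVs (difference 3.09, SE 0.57, limma adjusted p = 0.0012). This is the same precursor whose arms were called in opposite directions above.

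MiR-760 had ratios of -2.51, -2.96 and -2.77 and -4.26, -4.27 and -4.35 (1.55, limma adjusted p = 3.05e-05), and miR-326 of 5.03, 5.35 and 5.38 and 7.52, 6.98 and 6.96 (-1.90, limma adjusted p = 6.43e-05). For both, the arm at bright positions fell and the other arm was not called. MiR-764 differed by 1.73, miR-92b by 2.30 and miR-423 by 1.04 towards 5p, and miR-3594 by -1.09 and miR-199a by -0.68 towards 3p. MiR-23a differed by -2.68 (SE 0.84, limma adjusted p = 0.0272) with its 3p arm higher and its 5p arm lower, and MH-EV replicate 3 lay near the Thy1-MC-EV arrays. MiR-143 differed by 2.32, with 1 high Thy1-MC-EV array as for its 5p arm. The difference of miR-199a was -2.13 with plain subtraction of the blank mean, and its call ended on quantile-normalized values (adjusted p = 0.105). MiR-210 differed by 0.90. Its call and those of miR-874 and miR-328a were not made with plain subtraction of the blank mean (adjusted p = 0.115, 0.154 and 0.371) or on quantile-normalized values (adjusted p = 0.181, 0.0943 and 0.119). Without background correction those of miR-23a (adjusted p = 0.0501) and miR-351 (adjusted p = 0.0523) just missed the threshold. The calls of miR-351, miR-874 and miR-328a were lost with the replicate number as a block (adjusted p = 0.0503, 0.0512 and 0.0737). With plain subtraction of the blank mean, under which an array's scale cancels from the ratio, miR-675 (-2.74), miR-378a (3.62), miR-760 (1.28) and miR-326 (-1.53) kept their direction and their call. On quantile-normalized values the differences of miR-675 and miR-764 were smaller (-1.86 and 1.09), and both calls were kept.

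**Figure D5:**
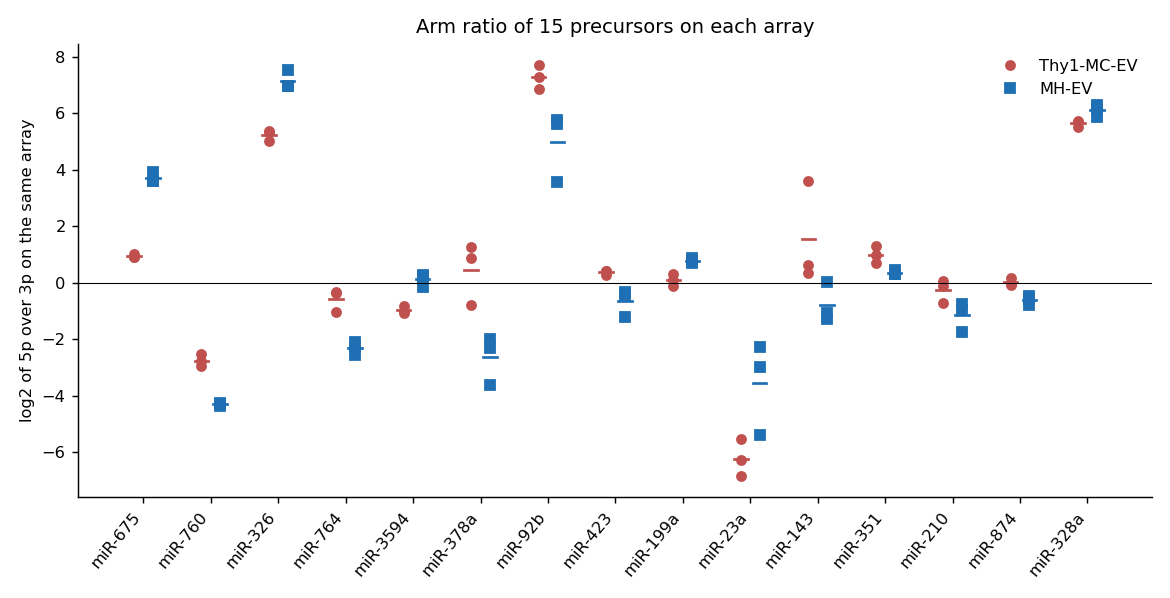
The log2 ratio of the 5p to the 3p arm on each array for the 15 precursors whose ratio differed, with Thy1-MC-EV arrays as red circles, MH-EV arrays as blue squares and a line at the mean of 3. Levels of different probes cannot be compared, so only the gap between groups is read, and for miR-675 and miR-760 the 3 arrays of a group lie close together.

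Several of these miRNAs were also called between Thy1-MC-EVs and EVs of the other cells. These comparisons share the Thy1-MC-EV arrays and are given side by side. Thy1-MC-EVs exceeded both for miR-10a-5p, which no MSC-EV array and 2 SH-EV arrays detected (limma adjusted p = 5.05e-06 against MSC-EVs and 2.64e-05 against SH-EVs). MiR-664-1-5p was higher by 1.70 and 2.29, miR-125a-3p by 2.40 and 1.87, and miR-125b-1-3p by 1.42 and 2.15 (adjusted p at most 0.0279). MiR-19b-3p was lower in Thy1-MC-EVs than in either (-1.63 and -1.35, limma adjusted p = 0.000256 and 0.000378). Let-7e-5p was lower than in SH-EVs by 1.07 and higher than in MSC-EVs by 0.93 (limma adjusted p = 0.013 and 0.0171). For miR-122-5p no difference from SH-EVs (0.92, limma adjusted p = 0.159) or from MSC-EVs (1.11, limma adjusted p = 0.069) was called.

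Of the 6 miRNAs that the study selected on these arrays, 3 were called here, all higher, against 14.5% higher of all miRNAs tested. They were miR-451-5p, miR-145-5p and miR-125b-5p (1.44, limma adjusted p = 0.00388, positions 19, 18 and 38 in Thy1-MC-EVs and 47, 56 and 59 in MH-EVs). MiR-199a-5p gave 0.47 (positions 150, 161 and 148 and 194, 200 and 218, limma adjusted p = 0.148), miR-3473 1.70 (limma adjusted p = 0.0588) and let-7f-5p 0.27 (limma adjusted p = 0.306), none of them called. Positions did not overlap for miR-199a-5p as well as for the 3 that were called, with Thy1-MC-EVs brighter, as for 21.0% of all miRNAs. The study asked for levels over 5-fold above both SH-EVs and MH-EVs, whereas a call here rests on adjusted p against MH-EVs alone. By the study's quantitative RT-PCR, all of them except let-7f and miR-3473 were relatively higher in Thy1-MC-EVs, miR-199a-5p included. As the list was chosen on these samples, its counts are no independent evidence of a direction. With scaling to the median or to the 75th percentile, 5 of the 6 were called higher, against 91 and 67 of all 387, and the same limit holds for that count.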

How the data were processed

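RNA of EVs was labelled with Cy3 and hybridized to 3D-Gene rat arrays with probes from miRBase release 20, 1 sample per array. For each array the authors deposited raw spot intensity, background-subtracted intensity and intensity normalized to a median of 25 over detected probes, and the raw intensity of 727 probes was used here. The deposited detection followed the trimmed mean of blank spots (5% cut at each end) plus 2 SD, with 6 exceptions among 8724 values. Raw intensities were background-corrected by normexp with an offset of 50 after subtraction of the blank mean, quantile-normalized over 12 arrays, put on the log2 scale and fitted with limma 3.58.1 (R 4.3.3) as 4 group means. The 387 probes that passed detection on all 3 arrays of 1 or more groups entered, and p-values were adjusted by Benjamini-Hochberg over all of them. The 2 values marked as faulty spots were left out. For rank order, the normal score of the rank of raw intensity among 727 probes was fitted in the same way. Arm ratios used normexp values, and because of the offset an array's scale cancels from them only in part. The procedure was run on simulated data with independent noise and, for the intensity and rank tests, a uniform log2 shift of each array. Those data did not hold the unequal background and detection of the real arrays, so they cannot decide between the scalings.

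Same-numbered Thy1-MC-EV and MH-EV arrays deviated together from their group means (correlations 0.31, 0.20 and 0.32), so a fit with the replicate number as a block was made, although no source says what a number marks. The arrays hold no slide or scan date, so batches were not analysed. Alternatives changed the background correction, scaling, filter, model and arrays. The miRNAs named were those with the largest called differences in each direction (up to 15, detected on all 6 arrays with positions that did not overlap), the largest bounds, up to 4 members of each list, calls of 1 test only, the brightest probes, called arm ratios, and other arms or family members of these. Members and lists were chosen with earlier results of these data known. With 3 arrays a group, the standard error of a log2 difference had a median of 0.187.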

Additional observations from a re-analysis of the deposited data

How the results depend on the processing

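Counts of calls moved by over 1.5 times under few settings. By intensity, 116 miRNAs became 74 with the methods' t-test after Benjamini-Hochberg (142 at its unadjusted threshold), 364 with the spike-in spots and 226 with the authors' normalized intensities, and leaving out 1 array gave 88 to 116. By rank, 86 became 145 with array weights and 46 over all 727 probes, and leaving out 1 array gave 54 to 76, the lowest being 54 without Thy1-MC-EV replicate 2 and 55 without Thy1-MC-EV replicate 1. For arm ratios, 15 became 43 over all 265 precursors, 7 of 14 with both arms detected on all 12 arrays and 7 with the methods' t-test after Benjamini-Hochberg, and leaving out 1 array gave 9 to 14, with 9 without Thy1-MC-EV replicate 2, MH-EV replicate 1 or MH-EV replicate 2. With the replicate number as a block the counts were 125, 91 and 12 over 12 arrays and 124, 97 and 12 over 6. The 12-array block ended the calls of miR-27a-3p (0.0551), miR-181b-5p (0.0609), miR-142-5p (0.0576), arm ratio miR-328a (0.0737), arm ratio miR-351 (0.0503) and arm ratio miR-874 (0.0512), with adjusted p in parentheses, and gained miR-487b-3p (0.0439). The 6-array block ended those of miR-92a-3p (0.0731), miR-27a-3p (0.111), miR-1224 (0.0531), miR-665 (0.0798), miR-142-5p (0.127), miR-222-3p (0.0785), arm ratio miR-199a (0.0631), arm ratio miR-328a (0.143), arm ratio miR-351 (0.0866) and arm ratio miR-874 (0.0748) and gained miR-199a-5p (0.039). A limma fit of the 6 arrays without a block lost miR-22-3p (0.0969), miR-378a-3p (0.0518), miR-92a-3p (0.126), miR-27a-3p (0.0969), miR-665 (0.0987), miR-134-3p (0.101), miR-142-5p (0.059), miR-30a-3p (0.0504), arm ratio miR-143 (0.0846), arm ratio miR-210 (0.0846), arm ratio miR-328a (0.139), arm ratio miR-351 (0.0796) and arm ratio miR-874 (0.055) and gained miR-199a-5p (0.0165). The background model with the mean and SD of the blank spots, chosen after seeing the data, gave 109 miRNAs and 13 arm ratios. The cause of these moves was not tested.

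Over 109 single differences and their alternatives, 2207 values kept direction and side of the threshold, 287 lost the call, 50 gained one and 67 changed sign. Changes of sign came only from scaling. With the spike-in spots 44 log2 differences turned: miR-378a-5p (-1.69), miR-30c-1-3p (-0.30), miR-92a-2-5p (-1.80), miR-29b-3p (-1.58), miR-144-3p (-1.11), miR-125a-5p (-0.56), miR-125b-5p (-1.49), miR-125b-1-3p (-0.23), miR-99b-5p (-0.57), miR-375-5p (-0.0075), miR-143-3p (-1.88), miR-145-5p (-1.05), miR-199a-3p (-1.16), miR-214-3p (-2.52), miR-347 (-0.11), miR-664-1-5p (-0.50), miR-139-3p (-0.55), miR-130a-3p (-1.001), miR-130b-3p (-1.34), miR-23a-3p (-0.89), miR-23b-3p (-0.86), miR-24-3p (-1.47), miR-27a-3p (-2.26), miR-1224 (-0.68), miR-10a-5p (-1.19), miR-182 (-1.14), miR-141-5p (-1.31), miR-181a-5p (-0.68), miR-181b-5p (-1.48), miR-370-3p (-1.28), miR-665 (-1.87), miR-142-5p (-1.75), miR-222-3p (-1.59), miR-150-5p (-2.08), miR-126a-3p (-2.35), miR-92b-5p (-1.43), miR-328a-5p (-2.52), miR-204-3p (-1.64), miR-199a-5p (-1.85), let-7f-5p (-2.17), miR-487b-3p (-1.52), miR-17-1-3p (-1.41), miR-295-5p (-2.08) and miR-351-5p (-1.90). With the authors' normalized intensities 17 turned: miR-378a-5p (-0.51), miR-92a-2-5p (-0.62), miR-29b-3p (-0.34), miR-125b-5p (-0.30), miR-214-3p (-1.44), miR-24-3p (-0.29), miR-27a-3p (-1.13), miR-370-3p (-0.058), miR-665 (-0.74), miR-142-5p (-0.26), miR-150-5p (-1.23), miR-126a-3p (-1.48), miR-92b-5p (-0.25), miR-328a-5p (-1.35), let-7f-5p (-1.26), miR-295-5p (-1.47) and miR-351-5p (-0.80). With the 75th percentile 4 turned: miR-101a-3p (0.15), miR-192-3p (0.058), miR-194-3p (0.0085) and miR-30a-3p (0.36). With the median 2 turned: miR-101a-3p (0.037) and miR-30a-3p (0.24).

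Leaving out 1 array ended these calls, with the highest limma adjusted p in parentheses: miR-101a-3p without Thy1-MC-EV replicate 2 or MH-EV replicate 2 (0.0598), miR-22-3p without Thy1-MC-EV replicates 1 or 2 (0.0923), miR-92a-3p without Thy1-MC-EV replicates 1, 2 or 3 (0.124), miR-92a-2-5p without Thy1-MC-EV replicate 1 (0.0633), miR-145-5p without Thy1-MC-EV replicate 3 (0.0542), miR-23a-3p without MH-EV replicates 1 or 2 (0.0645), miR-23b-3p without MH-EV replicate 2 (0.0555), miR-1224 without Thy1-MC-EV replicate 3 (0.0528) and miR-30a-3p without Thy1-MC-EV replicate 3 or MH-EV replicate 2 (0.0619). Leaving out any of 4 or more arrays ended the calls of miR-146a-5p (0.091, kept without MH-EV replicate 3), miR-497-5p (0.0963, kept without MH-EV replicate 3), miR-199a-3p (0.0816, kept without Thy1-MC-EV replicate 3), miR-24-3p (0.0619, kept without Thy1-MC-EV replicate 1 or MH-EV replicate 3), miR-27a-3p (0.165, kept without Thy1-MC-EV replicate 3 or MH-EV replicate 3), miR-181b-5p (0.154), miR-665 (0.104, kept without Thy1-MC-EV replicate 2 or MH-EV replicate 1), miR-134-3p (0.115, kept without Thy1-MC-EV replicate 2 or MH-EV replicate 3), miR-142-5p (0.137), miR-222-3p (0.126, kept without Thy1-MC-EV replicate 3 or MH-EV replicate 3), miR-211-3p (0.156), miR-92b-5p (0.0772, kept without Thy1-MC-EV replicate 3 or MH-EV replicate 3) and miR-194-3p (0.101, kept without Thy1-MC-EV replicates 1 or 2). Of the arm ratios this befell miR-143 (0.099), miR-199a (0.0875), miR-210 (0.123), miR-23a (0.099), miR-328a (0.162), miR-351 (0.127) and miR-874 (0.117) under at least 1 array. Signal over background limits miRNAs detected in only 1 group to bounds.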
